A study of Homo sapiens with 28 samples.

Results

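Open chromatin at MAF, WWOX, ITGB7, CCR1, NUAK1 and CX3CR1 was examined in human myeloma cell lines by ATAC-seq. The assay reads out where a transposase can reach the DNA, and so where chromatin is accessible. Of 154985 regions merged over all libraries, 45 had the start of 1 of these 6 genes as their nearest transcription start: 10 for MAF, 4 for WWOX, 6 for ITGB7, 10 for CCR1, 7 for NUAK1 and 8 for CX3CR1. All 45, promoter and distal, were kept. The libraries came from 22 untreated lines and from 6 of these lines (Karpas620, KMS27, L363, MM1S, OPM2 and RPMI8226) treated with 10 µM lenalidomide and collected on day 3, giving 28 libraries with each line assayed once per condition. A cell line is a single cultured tumour, and an established line carries many changes beside its translocation.

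The sample labels give no translocation. For Karpas620, KMS27, MM1S, OPM2, L363 and RPMI8226 the study states it. For 12 further lines it was taken from general knowledge of the lines. The 5 MAF-translocated lines were KMS11, MM1S and OCIMY5 with t(14;16) and RPMI8226 and XG-6 with t(16;22). KMS11 also carries t(4;14) and was counted only here, and MM1S and RPMI8226 also carry a MYC translocation. The 6 t(4;14) lines were KMS18, KMS26, KMS28, KMS34, LP1 and OPM2. The 6 t(11;14) lines were Karpas620, KMS12BM, KMS12PE, KMS21BM, KMS27 and U266. L363 carries t(17;22) and made up a class of its own, which with the preceding 12 lines gave 13 lines with another translocation. H1112, KMS20, PCM6 and PE1 were not assigned, and their values are given without a class.

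MAF is a basic leucine zipper transcription factor of the large MAF group, which binds MAF recognition elements, and translocation of its locus to an immunoglobulin locus places it beside plasma cell enhancers. WWOX is the neighbouring gene, a large oxidoreductase gene at a fragile site in which many of the breakpoints fall. ITGB7, CCR1, NUAK1 and CX3CR1 are genes reported to be higher in MAF-translocated myeloma: ITGB7 encodes the integrin beta chain that pairs with ITGA4 or ITGAE, CCR1 a receptor for CCL3 and CCL5, NUAK1 a kinase of the AMPK family that is activated by STK11, and CX3CR1 the receptor for CX3CL1.

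Reference bases are shown for 5 stretches on which the results below turn. They were read from GRCh37 on the strand of the gene, all on the minus strand, outside annotated exons, 200 bases each. Capitals mark matches, on either strand, to TGCTGAC (the outer part of a MAF recognition element), TGACTCA (an AP-1 element, which overlaps the core of the MAF element) or TGGGAA (the core bound by Ikaros proteins). The MAF start stretch, chr16:79634635-79634834, lies directly upstream of the first exon, and the MAF upstream stretch, chr16:79662395-79662594, is the middle of an intergenic region 27.5 kb upstream that was open in more lines than any other MAF region. The ITGB7 stretch, chr12:53594231-53594430, lies directly upstream of an annotated exon, in the region that overlaps an internal ITGB7 start. By annotation the region also overlaps an intron. The label below names the region. Whether the exon holds the start was not examined, so the stretch is not shown to be a promoter. The CCR1 stretch, chr3:46248023-46248222, is in the CCR1 intron. Both belong to regions that rose with lenalidomide. The NUAK1 stretch, chr12:106538807-106539006, is the middle of an intergenic region 4.7 kb upstream, taken as the upstream NUAK1 region with the highest mean CPM. Its values in MAF-translocated and t(11;14) lines did not overlap.
MAF start: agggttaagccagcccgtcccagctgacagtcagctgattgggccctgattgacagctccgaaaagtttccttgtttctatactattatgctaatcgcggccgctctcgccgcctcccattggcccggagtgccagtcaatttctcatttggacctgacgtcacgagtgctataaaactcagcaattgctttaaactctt
MAF upstream: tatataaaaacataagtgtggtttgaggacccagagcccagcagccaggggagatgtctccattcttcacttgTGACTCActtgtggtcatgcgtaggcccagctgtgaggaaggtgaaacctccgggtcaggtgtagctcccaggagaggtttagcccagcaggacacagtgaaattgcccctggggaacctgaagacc
ITGB7 start: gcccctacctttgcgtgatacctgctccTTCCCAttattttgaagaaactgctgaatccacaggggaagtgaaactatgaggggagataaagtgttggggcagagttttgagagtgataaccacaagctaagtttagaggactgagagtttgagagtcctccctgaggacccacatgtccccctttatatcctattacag
CCR1 intron: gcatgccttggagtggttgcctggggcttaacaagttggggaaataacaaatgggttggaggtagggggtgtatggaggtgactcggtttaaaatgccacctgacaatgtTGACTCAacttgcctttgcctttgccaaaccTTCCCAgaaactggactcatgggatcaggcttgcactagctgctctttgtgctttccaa
NUAK1 upstream: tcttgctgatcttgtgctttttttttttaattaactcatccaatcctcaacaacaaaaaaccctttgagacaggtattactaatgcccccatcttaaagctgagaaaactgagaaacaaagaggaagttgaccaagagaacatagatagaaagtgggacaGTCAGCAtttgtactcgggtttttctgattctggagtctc

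The MAF start stretch held none of the 3 motifs, the MAF upstream stretch a TGACTCA, the ITGB7 stretch a match to TGGGAA, the CCR1 stretch a TGACTCA and a match to TGGGAA, and the NUAK1 stretch a match to TGCTGAC. In the central 200 bases of the 41 gene regions at least that wide, TGCTGAC was found in 3 (7.32%), TGACTCA in 7 (17.1%) and TGGGAA in 5 (12.2%). The shares over 138505 regions of that width were 4.6%, 7.99% and 14.5%. The ITGB7 stretch lies off the centre of its region, whose central 200 bases held none of the 3 motifs. A match describes the letters only, and binding of a factor was not measured here.

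Untreated libraries held between 1599857 and 5564534 counts in regions (median 2239819), and lenalidomide libraries between 2168680 and 4248017. Values are given as CPM, a library's counts scaled so that its counts in regions total 1000000. A count of 0 allows up to 3 counts, between 0.539 and 1.88 CPM in untreated libraries. Such limits cover counting error only. Over 40025 regions over 2.5 kb from a start, the KMS34 and PE1 libraries had a correlation of 0.887 in log2(CPM + 1), within the range of 0.829 to 0.914 between the untreated and treated library of the same line. The next pair of different lines reached 0.578, and KMS12BM and KMS12PE, reported to come from the same patient, 0.538. PE1 entered no main test because it was not assigned a translocation, and counts of calls without KMS34 are in the closing section. Both still count as separate lines in counts, means and correlations over the 22 lines, and in alternative tests of 5 against 17 lines. KMS12BM and KMS12PE were counted as separate lines in every test, which ignores their shared donor. Without KMS12BM or KMS12PE the 1131 regions called between t(4;14) and t(11;14) lines became 288 or 600, and the 443 between MAF-translocated and t(11;14) lines 118 or 154, with 0 gene regions in each. Among plasma cell markers, the start region of PRDM1 and of TNFRSF17 was open in 22 lines, of SDC1 in 21, of IRF4 and XBP1 in 18 and of SLAMF7 in 2. The region nearest the start of the B, T and myeloid markers PAX5, MS4A1, CD3D, CD3E, CD14 and CSF1R was open in 1 to 3 lines, with medians of 0.862 to 3.44 CPM. It was within 2 kb of the start for each, whereas the nearest LYZ region, open in 8 lines, lay at -16794 bp from the LYZ start and is no start region.

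The 45 regions were open, meaning that the deposited table gives the library a peak there, in an average of 21.4% of the 22 lines, beside 21.2% over all regions. None was open in all 22 lines (3.98% of all regions were), 7 in at least 11 (15.6%, beside 14.8% of all regions), 14 in a single line (31.1%, beside 37.1%), and 5 in no untreated line (11.1%, beside 8.06%). By annotation 27 of the 45 overlapped an intron, 11 a promoter, and 13 lay outside genes. The number open per line ran from 4 in L363, the line with the fewest calls over all regions (18943), to 19 in MM1S (36863). As shares these were 8.89% of the 45 beside 12.2% of all regions in L363, and 42.2% beside 23.8% in MM1S. Calls did not follow CPM alone: PE1, the shallowest library, had no call at the MAF start at 54.4 CPM, whereas KMS20 had one at 11.2 CPM. The part of depth in this was not tested. Levels are therefore given as CPM throughout.

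**Figure D1:**
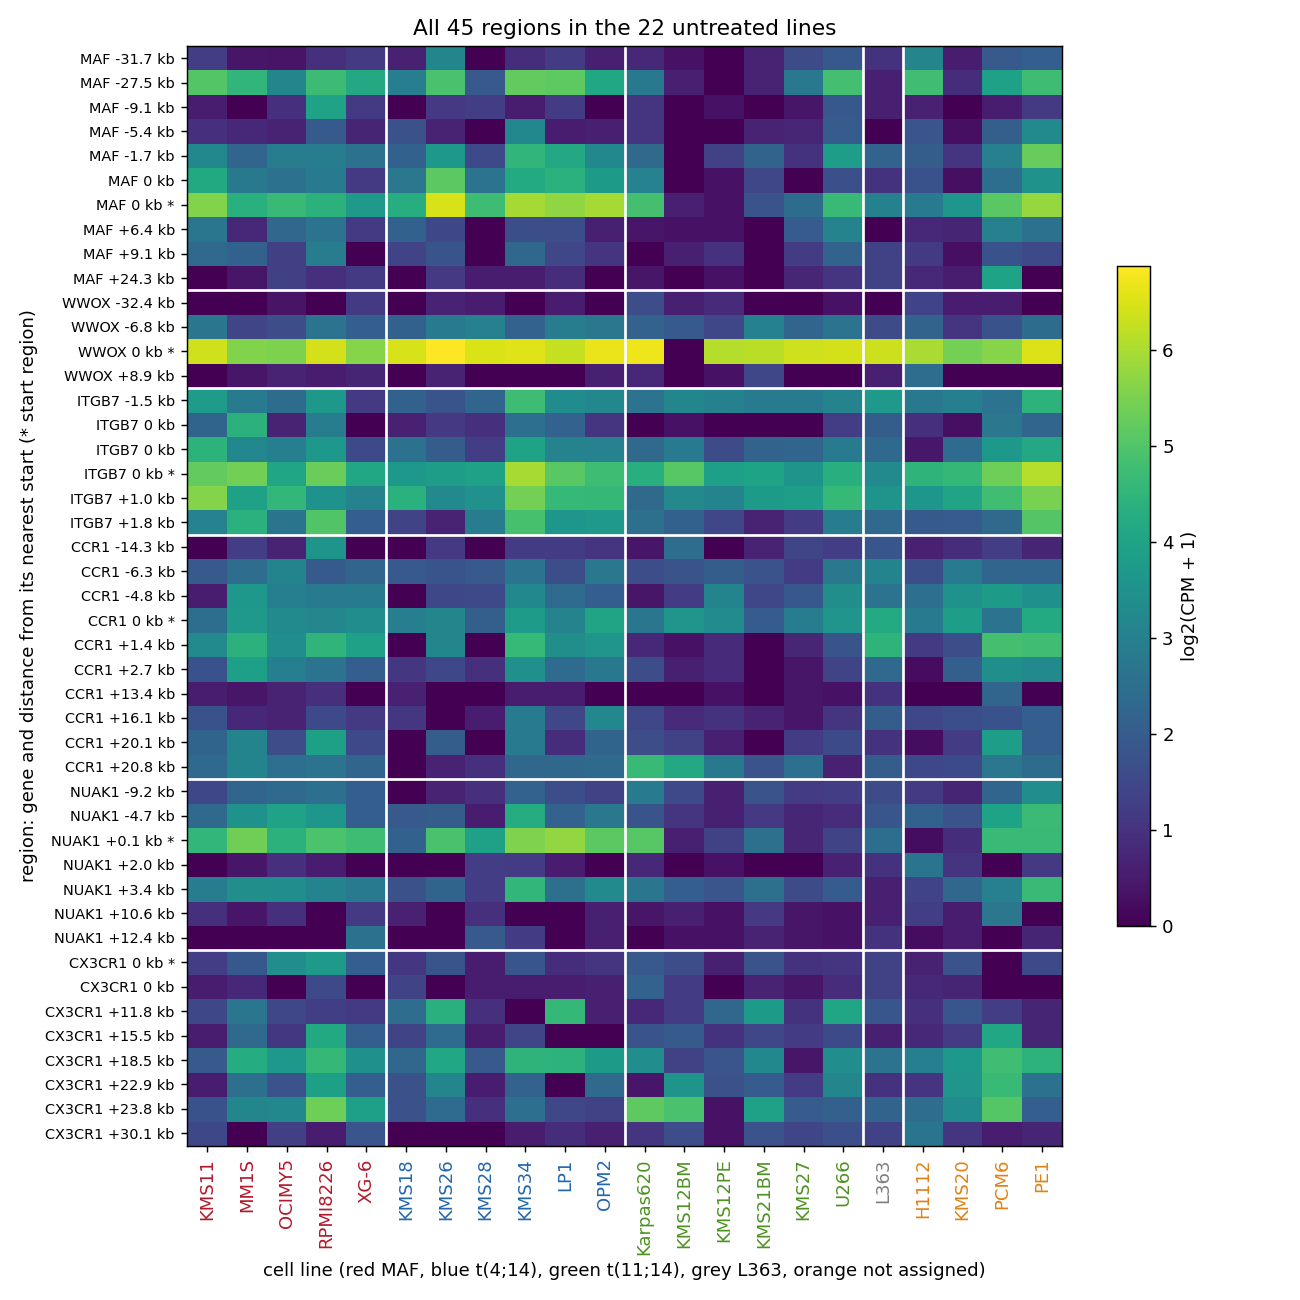
Log2(CPM + 1) of the 45 regions (rows, by gene and distance from its nearest start in kb, negative upstream, an asterisk for the start region) in the 22 untreated lines (columns, grouped by class). Bright rows include the start regions of WWOX, MAF, ITGB7 and NUAK1, the MAF region 27.5 kb upstream and the ITGB7 intron region called in 17 lines. The WWOX start row is dark in KMS12BM alone.

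The MAF start region (chr16:79634240-79635382, exon 1 with its 5′ UTR and the bases before it) varied widely between lines, from 0.254 CPM (1 count) in KMS12PE to 86.8 CPM in KMS26. A region open in fewer cells and a region less open in each cell cannot be told apart in such bulk libraries. MAF-translocated lines stood at 46.4 CPM in KMS11, 23.9 in OCIMY5, 20.3 in RPMI8226, 19.6 in MM1S and 11.9 in XG-6, a mean of 24.4 ± 13.1 (SD, n = 5). The t(4;14) lines ran from 18.5 CPM in KMS18 through a median of 56.3 to 86.8 in KMS26, a mean of 50.7 ± 25.1 (SD, n = 6). All 6 t(4;14) lines thus exceeded the lowest MAF-translocated line, and 4 of them exceeded the highest. The t(11;14) lines ran from 0.254 CPM through a median of 3.38 to 28.1 in Karpas620, a mean of 9.90 ± 12.6 (SD, n = 6), with 23.8 CPM in U266 and at most 4.38 in the other 4. L363 had 7.14 CPM, and the lines without an assigned translocation had 6.11 in H1112, 11.2 in KMS20, 33.5 in PCM6 and 54.4 in PE1. Openness of the MAF start was therefore not particular to lines with a MAF translocation, and the 3 classes overlapped.

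**Figure D2:**
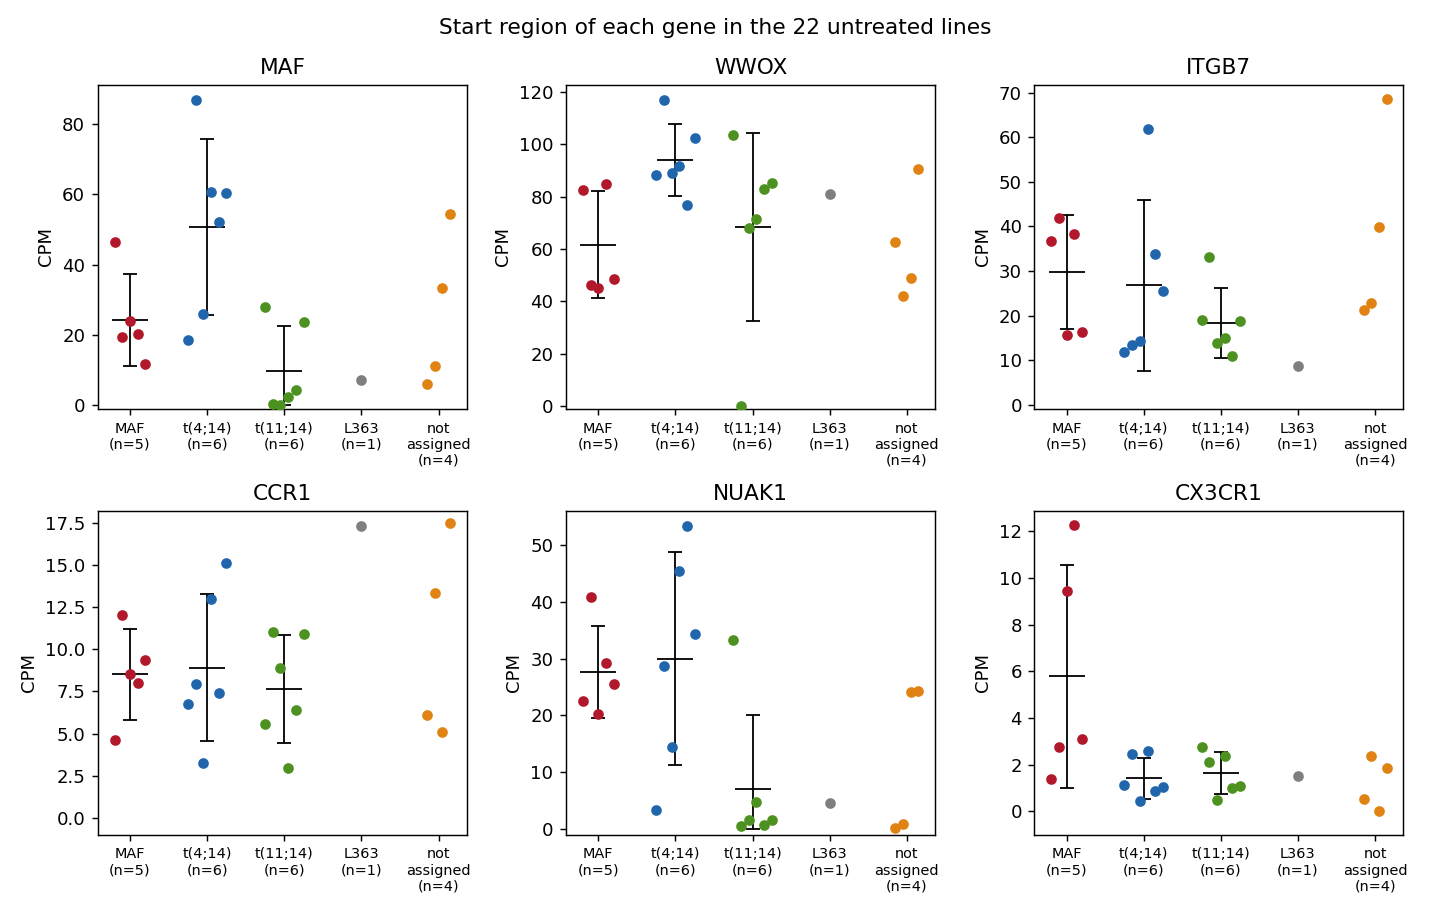
CPM of the start region of each gene in the 22 untreated lines. Each point is a line, horizontal bars are class means and error bars 1 SD (classes of at least 5 lines, lower bar cut at 0). At MAF and NUAK1 the t(4;14) lines reach 86.8 and 53.4 CPM, above every MAF-translocated line.

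The region 27.5 kb upstream of MAF (chr16:79662087-79662902, intergenic) was open in 16 lines, more than the start region itself, which was open in 14. It held 7.96 to 31.7 CPM in the MAF-translocated lines (median 22) and was called in all 5. In t(4;14) lines it ran from 2.78 to 36.3 CPM (median 22.5), and in t(11;14) lines from 0 to 27.1 CPM (median 3.16), with U266 the highest. Lines low at the start were mostly low here too: KMS12BM had 0.526 CPM, KMS12PE 0, KMS21BM 0.595 and L363 0.510. H1112 went the other way, with 26.1 CPM upstream and 6.11 at the start. The region within the transcribed part of exon 1 (chr16:79633745-79634105) reached 34.2 CPM in KMS26 and was called in KMS26 and LP1 only. Each of the other 7 MAF regions was called in at most 2 untreated lines, among them a region 9.1 kb upstream called only in RPMI8226, at 14.6 CPM.

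**Figure D3:**
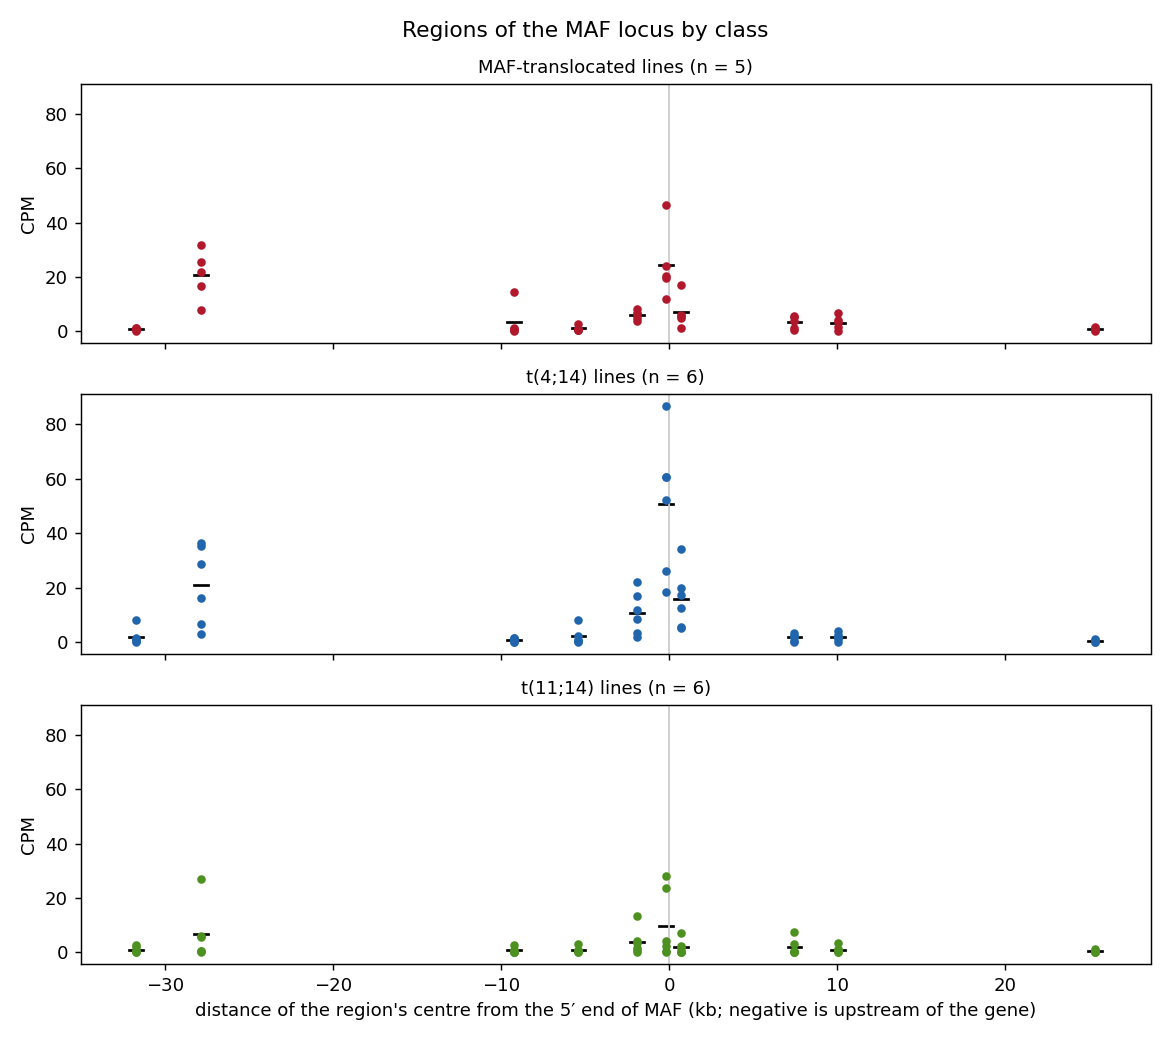
CPM of the 10 MAF regions by the distance of their centre from the 5′ end of MAF (kb, negative upstream), for the 3 classes of line. Points are lines and bars class means. The start region and the region 27.5 kb upstream carry most of the signal in each class, and the mean at the start is 50.7 CPM in t(4;14), 24.4 in MAF-translocated and 9.90 in t(11;14) lines.

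WWOX is transcribed from the plus strand over chr16:78133297-79246564 toward MAF. Regions inside the gene but nearest another start were not among its 4. At 1 of these (chr16:79042098-79043048) the lines other than KMS12BM and KMS12PE had a median of 3.03 and up to 85.6 CPM. Of the 4, only that at the WWOX start was strong (chr16:78132934-78134241, promoter, exon 1 and first intron). That region was called in 21 of 22 lines. It held between 42.1 and 117 CPM in those 21 lines and 0 counts in KMS12BM, which allows up to 0.789 CPM. KMS12PE had 268 counts there, or 68.2 CPM. Of the 4392 regions whose median over the 22 lines exceeded 40 CPM, KMS12BM had 0 counts in 4 and KMS12PE in 1. Of 6 other regions within 1 Mb that had a median of at least 8 CPM in the remaining 20 lines, KMS12BM lay below the lowest of those lines in 3, and KMS12PE in 1. The CLEC3A region (-96.2 kb) had 0.789 CPM in KMS12BM and 5.85 in KMS12PE, and the MON1B start (-908.7 kb) 42.3 and 74.3. At the NUDT7 start (-377.0 kb) KMS12BM had 1.31 CPM and KMS12PE 32.6, and another line had 0.884. Other regions went the other way: SYCE1L (-887.0 kb) had 36.3 CPM in KMS12BM, near the median of 37.8, and 1.27 in KMS12PE, and a weak WWOX intron region 23.7 kb from the start had 2.89 CPM in KMS12BM beside a median of 3.65. Copy number was not measured in these files, and its part in these values was not tested.

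**Figure D4:**
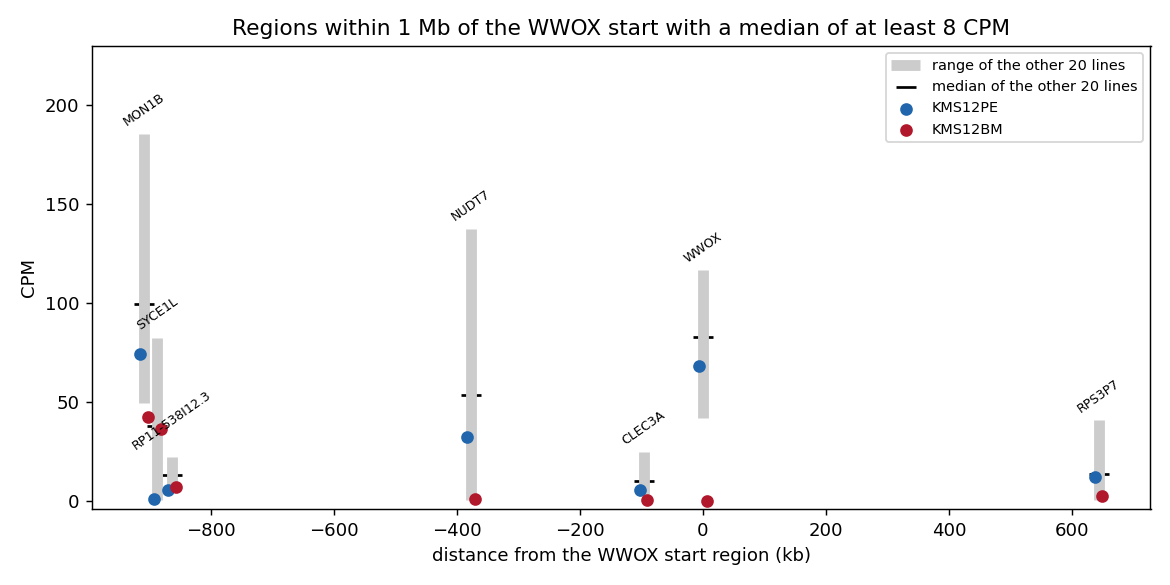
CPM of regions within 1 Mb of the WWOX start that have a median of at least 8 CPM in the other 20 lines, by distance from the WWOX start region (kb). Grey bars give the range and black ticks the median of the 20 lines, blue points KMS12PE and red points KMS12BM. KMS12BM is at 0 at WWOX, where KMS12PE has 68.2 CPM.

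Among MAF-translocated lines the WWOX start had 85.0 CPM in RPMI8226 and 82.7 in KMS11, and 48.7 in XG-6, 46.3 in MM1S and 45.1 in OCIMY5. The t(4;14) lines ran from 76.9 to 117 CPM, and the t(11;14) lines other than KMS12BM from 68.2 to 103. The 3 lower MAF-translocated lines therefore lay below every classed line but KMS12BM, and beside PCM6 (48.8 CPM) and KMS20 (42.1 CPM), which were not assigned. Against the 13 other lines the difference in mean log2(CPM + 1) was -0.06, with an exact two-sided permutation p of 0.991. This value rests on KMS12BM: without it the difference was -0.55 (exact permutation test, p = 0.00533), and after also dividing each value by the mean of regions within 5 Mb it was -0.25 (exact permutation test, p = 0.0747). The last was added after the values were seen.

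ITGB7, the integrin beta chain, had its start region (chr12:53594045-53594952) at an internal start in the gene. The outer 5′ end of the gene lies in another region (chr12:53600938-53601205), which was called in 3 lines and averaged 6.87 CPM. The internal start region was called in 20 lines. MAF-translocated lines had 41.9 CPM in MM1S, 38.2 in RPMI8226, 36.8 in KMS11, 16.2 in XG-6 and 15.6 in OCIMY5, a mean of 29.7 ± 12.8 (SD, n = 5). The other 13 lines ran from 8.67 CPM in L363 to 61.9 in KMS34 with a mean of 21.5 ± 14.6 (SD, n = 13), and the groups overlapped. PE1 was the highest line at 68.8 CPM. The difference in mean log2(CPM + 1) was 0.54 (exact permutation test, two-sided, p = 0.187), and 0.68 without KMS34 (exact permutation p = 0.0580). A second region in an ITGB7 intron (chr12:53599464-53599973) was called in 17 lines, at 4.16 to 47.8 CPM with KMS11 the highest. Further along the gene, a region over an internal exon (chr12:53591497-53591966) lay at -3 bp from another annotated start and overlapped a promoter by annotation. It was called in MM1S alone, at 20.3 CPM (59 counts), with RPMI8226 next at 6.61 CPM and the t(11;14) lines between 0 and 1.37. The region past the 3′ end of ITGB7, in the 3′ UTR of ZNF740 (chr12:53583655-53584439), had 31.9 CPM in PE1, 31.2 in RPMI8226, 28.1 in KMS34 and 19.9 in MM1S, and at most 6.56 CPM in t(11;14) lines.

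CCR1, the chemokine receptor, had a start region (chr3:46249614-46250212) that was similar in all classes. It ran from 2.98 to 17.5 CPM over the 22 lines, with class means of 8.51 ± 2.67 (SD, n = 5) in MAF-translocated, 8.90 ± 4.37 (SD, n = 6) in t(4;14) and 7.64 ± 3.22 (SD, n = 6) in t(11;14) lines. The classes overlapped throughout, and MAF-translocated lines differed from the other lines by 0.02 (exact permutation test, two-sided, p = 0.960). The CCR1 intron region (chr3:46247753-46248493, 1.4 kb into the gene and also within an annotated CCR3 intron), which had the highest mean of the 10, behaved otherwise. MAF-translocated lines had 21.7 CPM in RPMI8226, 20.3 in MM1S, 14.3 in XG-6, 9.43 in OCIMY5 and 8.73 in KMS11. The t(11;14) lines had 2.46 CPM in U266 and at most 0.763 in the other 5, so these classes did not overlap. In t(4;14) lines the region ran from 0 counts in KMS18 and KMS28 to 23.4 CPM in KMS34, and L363, PE1 and PCM6 had 21.4, 26.3 and 27.9 CPM. The difference from all 13 other lines was 2.08 in mean log2(CPM + 1) (exact permutation test, two-sided, p = 0.0251), for a region that was an alternative to the start region. The 7 CCR1 regions outside the gene lay in CCR3 introns, and their order between lines differed. The one at chr3:46228298-46229069 was highest in the t(11;14) lines Karpas620 (24.3 CPM) and KMS12BM (16.8 CPM), with 0 to 4.17 CPM in t(4;14) lines, whereas the one at chr3:46254707-46255129 was highest in PCM6 (12.6 CPM) and MM1S (11.7 CPM).

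NUAK1, the kinase, had a start region (chr12:106532301-106533722, 5′ UTR exon and the bases before it) at 40.9 CPM in MM1S, 29.3 in RPMI8226, 25.6 in XG-6, 22.5 in KMS11 and 20.3 in OCIMY5. The 5 MAF-translocated lines thus had a narrow range, with a mean of 27.7 ± 8.08 (SD, n = 5). The 13 other lines split widely, from 0.526 CPM in KMS12BM to 53.4 in LP1. Within the t(11;14) class Karpas620 had 33.3 CPM and the other 5 at most 4.76. Within the t(4;14) class KMS18 had 3.37 CPM, KMS28 14.4 and the other 4 between 28.7 and 53.4. The difference between MAF-translocated and other lines was 1.60 in mean log2(CPM + 1) (exact permutation test, two-sided, p = 0.0906), with the other lines spread on both sides, and 1.80 without KMS34 (exact permutation p = 0.0601). The region 4.7 kb upstream (chr12:106538513-106539300) had 14.7 CPM in OCIMY5, 11.3 in RPMI8226, 10.6 in MM1S, 4.13 in KMS11 and 3.12 in XG-6. In t(11;14) lines it stayed between 0.509 and 2.43 CPM, below every MAF-translocated line, and KMS34 and PE1 were the highest of all lines at 18.2 and 25.0 CPM.

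CX3CR1, the fractalkine receptor, had little signal at its start region (chr3:39321403-39321945), which lies inside the gene. The outer 5′ end of the gene, chr3:39323226, lies in another region, which begins at chr3:39323092. That region was not tested on its own by permutation. RPMI8226 had 12.3 CPM (26 counts) and OCIMY5 9.43 (32 counts), and these were the only lines with a call. XG-6 had 3.12 CPM, MM1S 2.75 and KMS11 1.38, and the 13 other lines ran from 0.464 to 2.78 CPM. The difference in mean log2(CPM + 1) was 1.19 (exact permutation test, two-sided, p = 0.00455, the smallest possible value being 0.000117). It was the lowest p of the 6 start regions tested, and it was 0.87 without RPMI8226 and 0.96 without OCIMY5 (exact permutation p = 0.0189 and 0.0164). In the fit across all regions without a filter on low counts its adjusted p (edgeR) was 0.167. The tallest CX3CR1 region, 18.5 kb downstream of the start (chr3:39302452-39303048), was called in 14 lines and overlapped between classes, at 2.76 to 23.1 CPM in MAF-translocated and 0.337 to 21.2 CPM in other lines. A region 23.8 kb downstream of the start (chr3:39296980-39297731) had 40.1 CPM in RPMI8226, 35.4 in Karpas620, 32.5 in PCM6 and 29.2 in KMS12BM, and 0.928 to 4.76 CPM in the t(4;14) lines. KMS12PE had 0.254 CPM there. In a CX3CR1 intron (chr3:39309209-39309728) LP1 had 23.0 CPM, KMS26 19.6, U266 15.9 and KMS21BM 12.5, and MAF-translocated lines had 1.25 to 5.49 CPM.

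Across all regions the 5 MAF-translocated lines were compared with the 13 other lines on counts with edgeR's quasi-likelihood test and Benjamini-Hochberg adjustment over all regions. At an adjusted p under 0.05, 62 of 54520 regions were called (0.114%), 61 of them higher in MAF-translocated lines. Of the 45 gene regions 24 passed the filter on low counts, and 0 were called by edgeR, with 1 at an unadjusted p under 0.05 (4.17%, beside 7.47% of all regions tested), and 0 by DESeq2, which called 0.649% of all regions. That one was the NUAK1 region 4.7 kb upstream, with a log2 fold change of 1.47 ± 0.64 (SE), an unadjusted p of 0.0321 and an adjusted p of 0.607 (edgeR). The MAF start region gave -0.20 ± 0.81 (SE, adjusted p = 0.991, edgeR), and its difference in mean log2(CPM + 1) was 0.63 (exact permutation test, two-sided, p = 0.527). The sign differs because the first compares mean counts and the second mean log values, of classes that overlap. The median log2 fold change was 0.49 over the 24 regions and -0.04 over all regions tested. No gene region had classes that did not overlap, beside 0.113% of the 86815 regions with a mean of at least 2 CPM.

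With the values per line in view, the other lines were divided by translocation in a fit of 3 classes. Between t(4;14) and t(11;14) lines, 1131 of 54783 regions were called by edgeR (2.06%) and 0 of the 24 gene regions tested, of which 8 had an unadjusted p under 0.05 (33.3%, beside 17.8% of all regions tested). The MAF start was higher in t(4;14) lines by a log2 fold change of 2.19 ± 0.77 (SE, adjusted p = 0.136, edgeR), the CCR1 intron region by 3.13 ± 0.92 (SE, adjusted p = 0.0763) and the NUAK1 start by 1.88 ± 0.83 (SE, adjusted p = 0.239). DESeq2, which called 7.76% of regions, called 5 of the 24: both regions over the MAF start, the CCR1 intron region and the NUAK1 region 4.7 kb upstream as higher in t(4;14) lines and the CX3CR1 region 23.8 kb downstream of the start as lower. Without Karpas620, edgeR called the NUAK1 start (log2 fold change 4.01, adjusted p = 0.0155) and the second MAF region over exon 1 (4.19, adjusted p = 0.0344), beside 1.32% of all regions, and without KMS18 the CCR1 intron region (3.40, adjusted p = 0.0399), beside 2.03%. Of the regions nearest markers of other cell types the distal LYZ region was lower in t(4;14) lines at -3.47 (adjusted p = 0.0174, edgeR), and its part in these values was not tested. No gene region had t(4;14) and t(11;14) lines that did not overlap, beside 1.7% of all regions.

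Between MAF-translocated and t(11;14) lines 443 regions were called by edgeR (0.809%) and again 0 of the 24, of which 5 had an unadjusted p under 0.05 (20.8%, beside 12.8% of all regions tested). The CCR1 intron region had a log2 fold change of 3.97 ± 0.95 (SE, adjusted p = 0.0543, edgeR) and the NUAK1 region 4.7 kb upstream 2.87 ± 0.71 (SE, adjusted p = 0.0607, edgeR). The NUAK1 start had 1.81 ± 0.86 (SE, adjusted p = 0.383, edgeR), and was called without Karpas620 (3.95, adjusted p = 0.0186, edgeR), beside 0.506% of all regions. The CCR1 intron region was called without KMS18 or KMS28 (adjusted p = 0.0288 and 0.0297, edgeR), and the NUAK1 region 4.7 kb upstream without KMS28 or XG-6 (adjusted p = 0.0402 and 0.0477, edgeR). Over all regions these fits called 0.944% without KMS18, 0.766% without KMS28 and 1.06% without XG-6. DESeq2 called both regions in the CCR1 intron and the NUAK1 region 4.7 kb upstream, 3 of 24 beside 3.71% of all regions. Of 30 gene regions with a mean of at least 2 CPM, 4 had classes that did not overlap, all higher in MAF-translocated lines: 2 in the CCR1 intron and 2 of NUAK1. The share over all regions was 1.46%.

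Between MAF-translocated and t(4;14) lines 0 of 54783 regions were called by edgeR (0%), with 4370 at an unadjusted p under 0.05, and DESeq2 called 429 (0.783%). Of the 24 gene regions 0 were called by either, with 1 at an unadjusted p under 0.05 in edgeR (4.17%, beside 7.98% of all regions tested), the CX3CR1 region 23.8 kb downstream of the start. The MAF start was lower in MAF-translocated lines by a log2 fold change of -1.01 ± 0.79 (SE, adjusted p = 0.852, edgeR), within the spread of the lines. No gene region had classes that did not overlap, beside 0.865% of all regions. KMS11, on the MAF-translocated side, also carries t(4;14). Without KMS11 edgeR called 1 of 60867 regions and 0 of 24 gene regions, with 6031 of all regions at an unadjusted p under 0.05. The contrasts share lines, so their values are set side by side and were not counted against each other.

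Lenalidomide, which directs the ubiquitin ligase component cereblon to the Ikaros factors IKZF1 and IKZF3, was compared with no treatment in the 6 paired lines, with the line as a block. Of 37732 regions tested 2036 were called (5.4%), and 1575 of these were higher after treatment (4.17%). Of the 45 gene regions 22 were tested and 2 were called, both higher: the ITGB7 start region and the CCR1 intron region. The median log2 fold change was 0.11 over the 22 and -0.01 over all regions tested.

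The ITGB7 start region went from 19.1 to 38.3 CPM in Karpas620, from 10.8 to 19.5 in KMS27 and from 8.67 to 21.7 in L363. It went from 25.6 to 36.6 CPM in OPM2 and from 38.2 to 55.3 in RPMI8226, but from 41.9 to 30.9 in MM1S. It was thus higher after treatment in 5 of 6 pairs, with a log2 fold change of 0.54 ± 0.16 (SE, adjusted p = 0.0346, edgeR). The call was lost with DESeq2 (adjusted p = 0.108) and when any line but MM1S was left out (adjusted p = 0.0584 to 0.172, edgeR). The ITGB7 region 1.5 kb upstream (chr12:53602636-53603146) has RARG as its nearest transcript in the deposited annotation. It was higher in 5 of 6 pairs at 0.72 ± 0.23 (SE, adjusted p = 0.0512, edgeR). It was called without Karpas620 or RPMI8226 (adjusted p = 0.0415 and 0.0469, edgeR), fits that called 4.44% and 6.74% of all regions.

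The CCR1 intron region rose in every pair. It went from 11 to 31.7 CPM in OPM2, from 21.7 to 30.6 in RPMI8226, from 20.3 to 25.4 in MM1S and from 21.4 to 25.8 in L363. In Karpas620 it went from 2 to 7 counts and in KMS27 from 2 to 8, so the direction there rests on few counts. The log2 fold change was 0.71 ± 0.21 (SE, adjusted p = 0.0368, edgeR). The call was lost with DESeq2 (adjusted p = 0.100) and without Karpas620, KMS27, MM1S or OPM2 (adjusted p = 0.0564 to 0.250, edgeR), OPM2 having the largest change. The CCR1 start region gave -0.03 ± 0.21 (SE, adjusted p = 0.971, edgeR) in the same fit.

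The other start regions were not called. MAF was lower in 4 pairs and higher in OPM2 (60.5 to 71.9 CPM) and RPMI8226 (20.3 to 28.2 CPM), a log2 fold change of -0.08 ± 0.18 (SE, adjusted p = 0.882, edgeR). The region 27.5 kb upstream of MAF gave -0.09 ± 0.20 (SE, adjusted p = 0.912, edgeR), lower in 4 pairs. WWOX was lower in all 6 pairs by a small amount, -0.19 ± 0.08 (SE, adjusted p = 0.228, edgeR), with the largest change in MM1S, from 46.3 to 31.6 CPM. NUAK1 gave -0.06 ± 0.17 (SE, adjusted p = 0.912, edgeR). CX3CR1 did not pass the filter on low counts, except without L363, where it was called (1.14, adjusted p = 0.0347, edgeR), beside 3.6% of all regions. Its start went from 2.75 to 13.8 CPM in MM1S and from 12.3 to 17.4 CPM in RPMI8226, was higher after treatment in 5 of 6 pairs, and was among the 5 gene regions called by edgeR without the filter (log2 fold change 1.14, adjusted p = 0.0198, edgeR), all 5 higher, beside 2.64% of regions called in either direction and 2.33% called higher. The others were the ITGB7 start, the ITGB7 region 1.5 kb upstream, the CCR1 intron region and a CCR1 region 16.1 kb downstream of the start. The last (chr3:46233263-46233774, in a CCR3 intron) was higher in all 6 pairs, from 6 to 29 counts in L363, 1 to 11 in KMS27 and 2 to 11 in MM1S, at 1.37 (adjusted p = 0.00670, edgeR, no filter). DESeq2 called 0 of the 22, beside 2.21% of all regions. In edgeR 4 of the 22 had an unadjusted p under 0.05 (18.2%), close to the 17.3% of all regions tested.

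**Figure D5:**
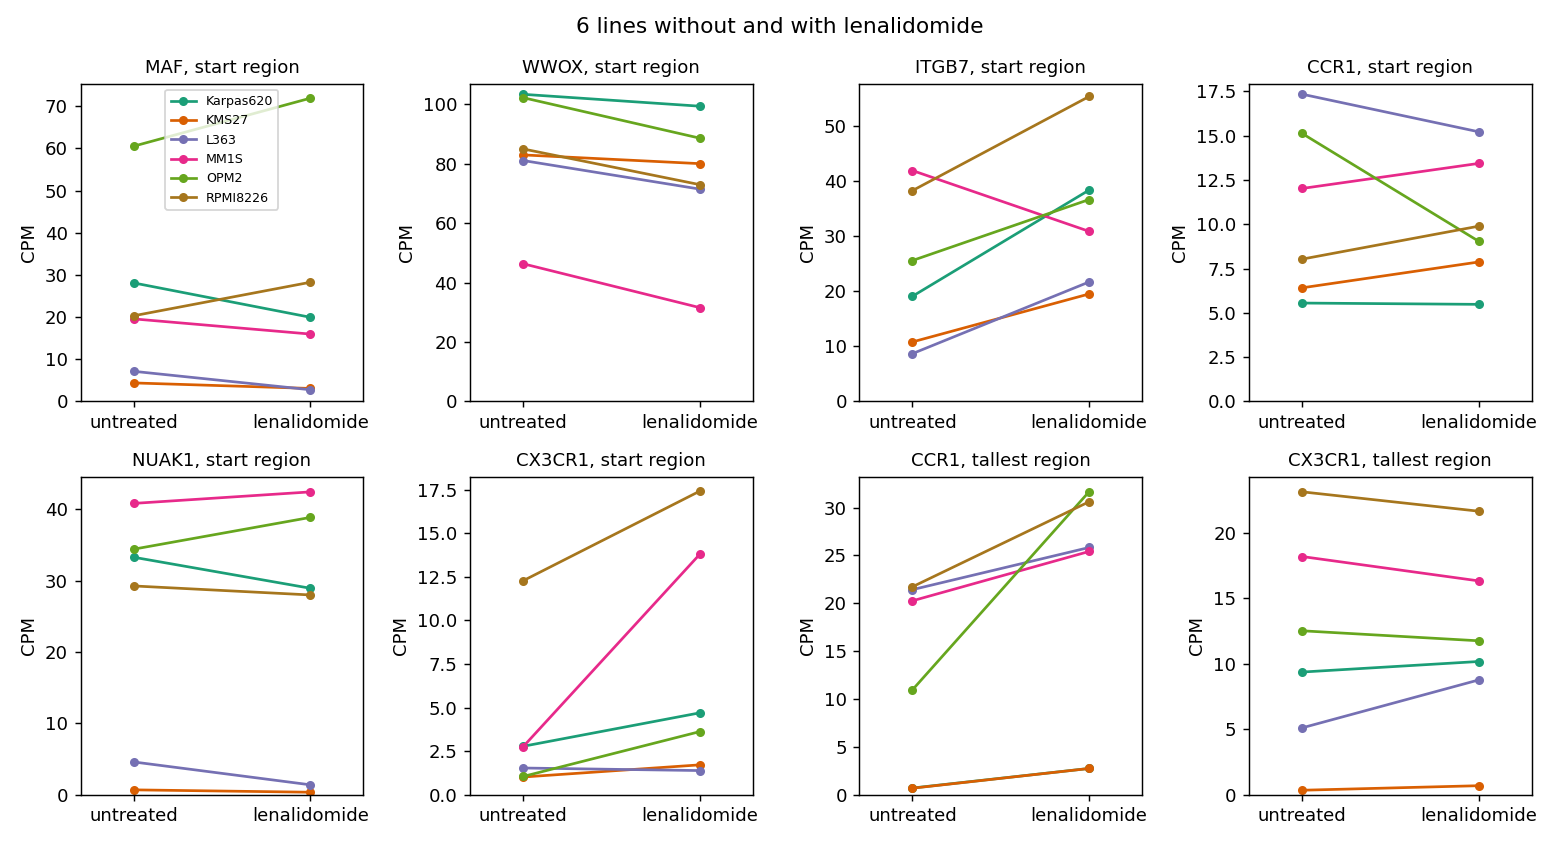
CPM without and with lenalidomide in the 6 paired lines, for the 6 start regions and the tallest CCR1 and CX3CR1 regions. Each line joins the libraries of 1 cell line. The tallest CCR1 region rises in all 6 lines and the ITGB7 start region in all but MM1S, which falls from 41.9 to 30.9 CPM.

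A further 15 genes of the pathway were described: the large MAF factors MAFA and NRL, the small MAF partners MAFF, MAFG and MAFK, the reported targets CCND2 and DEPTOR, and the partners, ligands or activating kinase of the members (ITGA4, ITGAE, CDH1, MADCAM1, CCL3, CCL5, CX3CL1 and STK11). They had 78 regions. Of the 32 tested for MAF-translocated against other lines 0 were called by edgeR, with a median log2 fold change of -0.06, and 0 of 33 were called in each contrast of the 3 classes. Of the 33 tested with lenalidomide 2 were called (6.06%, close to the 5.4% over all regions), both of CDH1, the epithelial cadherin bound by the integrin of ITGAE and ITGB7: log2 fold changes of 0.50 ± 0.15 (SE, adjusted p = 0.0395, edgeR) and 0.64 ± 0.17 (SE, adjusted p = 0.0200, edgeR). Neither was the CDH1 start region: of the 13 start regions of these genes tested with lenalidomide, 0 were called. The CCND2 start ran from 0 to 29.0 CPM, that of ITGA4 from 55.1 to 142 CPM in all lines, and that of CDH1 reached at most 8.77 CPM.

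Over the 22 lines, regions near other starts with a pattern most like that of the MAF start, among 22738 regions within 1 kb of a start and with a mean of at least 2 CPM, belonged to SMAD1 (r = 0.913), MED12L (0.889), MYCN (0.881), GABBR1 (0.850) and RP11-610P16.1 (0.847). Pearson's r of log2(CPM + 1) is a description here, over lines that include KMS34 and PE1. Among the members the NUAK1 start was most like it (r = 0.760), followed by WWOX (0.531), ITGB7 (0.401), CCR1 (0.0970) and CX3CR1 (0.0960). The regions most like the ITGB7 start belonged to RP1-288H2.2 (r = 0.815), AC000370.2 (0.756), ABCB1 (0.749), STAU1 (0.745) and RASA4B (0.733).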

How the data were processed

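The submitters' processing notes for these 28 ATAC-seq libraries name GRCh37, Bowtie2 (2.2.6), SAMtools (1.7) and MACS2 (2.1.0.20151222). The methods describe the steps for ChIP-seq, under a heading that also covers ATAC-seq: alignment, marking of PCR duplicates and peak calling at a q of 0.01. Any offset of read ends for the transposase, and whether reads or fragments were counted, is not given in the sources used here. The deposited table holds raw counts per merged region, the authors' RPM (counts scaled to 1000000 per library, equal to the CPM used here), and a deposited score that the table does not define. It was taken here to count peaks called in that library, and a region is called open where it is above 0. Counts and this score were used, and 0 columns were left without a sample.

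Regions were taken by the gene of their nearest start in the table. A start region is the one nearest to an annotated start, ties going to the higher mean CPM. These, the tallest region by mean CPM and up to 5 called regions per gene and comparison were named by rule, and other regions were singled out after their values were seen. The members and lists were chosen with earlier results of these data known. Some listed genes are not reported here. Annotation was GENCODE for GRCh37.

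Fits across all regions used edgeR 4.0.16 in R 4.3.3 (TMM, filterByExpr, quasi-likelihood test, Benjamini-Hochberg adjusted p under 0.05), with the line as a block for lenalidomide, since each pair is the same line. A standard error is the fold change divided by the root of its F value. Start regions were tested by exact permutation over lines on log2(CPM + 1), 6 tests with raw p. Both were tested on simulated data. With each line assayed once, p-values between classes measure the spread between lines. Those for lenalidomide measure how the change within a line varies between lines. Alternatives were DESeq2 1.42.0, no TMM, no filter, no block, each line left out, other sets of lines, a pseudocount of 0.1, TMM-scaled CPM, the tallest or summed regions, and division by the mean of regions within 5 Mb. The fit of 3 classes was added after values per line were seen.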

Additional observations from a re-analysis of the deposited data

Results flagged for a closer look

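Groups of 5 or 6 values were screened, 40 in all. They covered 8 regions, in 3 classes of lines, in the treated libraries and in the changes with lenalidomide. In 7 groups a line lay far from the others. The rule flags about 1 group in 20 for independent, normally distributed values. These groups share lines and CPM cannot fall below 0, so that rate may not hold and no excess is read from it. In t(11;14) lines, KMS12BM had 0 CPM at the WWOX start beside 68.2 to 103 in the other 5, and 33.1 CPM at the ITGB7 start beside 10.8 to 19.1. Karpas620 had 33.3 CPM at the NUAK1 start beside 0.526 to 4.76, and U266 had 2.46 CPM at the CCR1 intron region beside 0 to 0.763. Among lenalidomide-treated libraries, OPM2 had 71.9 CPM at the MAF start beside 2.77 to 28.2 in the other 5. The change in log2(CPM + 1) with lenalidomide was -0.54 in MM1S at the WWOX start beside -0.22 to -0.05, and -1.23 in L363 at the NUAK1 start beside -0.32 to 0.17. The last rests on 9 and 3 counts. No named region changed in opposite directions in all MAF-translocated and all other lines.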

How the results depend on the processing

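With DESeq2, lenalidomide changed 834 regions, with 0 of the gene regions. Without the filter on low counts it changed 4092 with 5, and without the cell line as a block 0 with 0 (440 at an unadjusted p under 0.05); no other fit had a block. For MAF-translocated against other lines DESeq2 called 354 regions, no filter 149, 5 against 17 lines 25, and the 6 lines with a stated translocation 0 (4140 at an unadjusted p under 0.05, edgeR). For t(4;14) against t(11;14) DESeq2 called 4252 with 5 gene regions, for MAF-translocated against t(11;14) 2031 with 3, and without TMM 1 gene region, and for MAF-translocated against t(4;14) 429. The cause of these differences was not tested. Leaving out each line gave 1067 (MM1S) to 2503 (RPMI8226) regions with lenalidomide and 0 to 2 gene regions, 9 (OCIMY5) to 130 (XG-6) for MAF-translocated against other lines, 288 (KMS12BM) to 1518 (XG-6) with 0 to 2 for t(4;14) against t(11;14), 118 (KMS12BM) to 633 (XG-6) with 0 to 2 for MAF-translocated against t(11;14), and 0 to 2 for MAF-translocated against t(4;14). Without KMS34 the last 4 contrasts gave 64, 441, 350 and 0 regions and 0 gene regions each.

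Signs turned for changes close to 0. With lenalidomide, MAF start gave 0.040 without the block and -0.23 to 0.019 with each line left out, CCR1 start 0.033 without the filter and -0.10 to 0.11, NUAK1 start -0.14 to 6.7e-06, and the tallest CX3CR1 region -0.029 to 0.12. For MAF-translocated against other lines, leaving out lines gave -0.57 to 0.057 at MAF and -0.28 to 0.034 at CCR1 in edgeR. In the permutation tests WWOX gave 0.19 with a pseudocount of 0.1, 0.24 after division by the local mean and -0.55 to 0.039 with each line left out, and CCR1 -0.044 with TMM-scaled CPM, -0.014 in the 6 lines, -0.028 for 5 against 17 lines and -0.11 to 0.20 with each line left out. Among values of single regions 443 kept their direction and side of the threshold, 28 changed sign, 11 passed the threshold and 16 fell below it. With 2 against 4 lines no exact permutation p can go below 0.0667. Below about 3 counts a region at 0 cannot be told from a low one.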
